A study of Mus musculus with 12 samples.

Results

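The imprinted Zrsr1-Commd1 and Grb10-Ddc loci of mouse chromosome 11 were examined in ChIP-seq libraries (sequenced chromatin pulled down with an antibody) from mouse embryonic stem cells. Their members are the 1 kb bins that overlap the body of Zrsr1, Commd1, Grb10 or Ddc, or the 5 kb on either side. These were 309 of 2,725,549 bins, 96 at Commd1, 118 at Grb10 and 95 at Ddc, and the 15 bins of Zrsr1 all lie among those of Commd1. A bin at Zrsr1 (chromosome 11, 22,972,001 to 22,973,000, mm10) and a bin at Grb10 (12,026,001 to 12,027,000) are shown singly. These genes and bins were chosen by their high reads over local background in these same GZF1 libraries, so the values are a description and were not tested.

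The study asked where GZF1, a DNA-binding BTB zinc-finger protein, sits in the genome, and its title names the imprinted Dlk1-Dio3 domain and the imprint factor ZFP57. Cells were fixed with formaldehyde and their chromatin was cut with micrococcal nuclease. The 8 libraries of the table were, first, RGM cells (a 129xCAST line) that overexpress ectopic Gzf1-Flag (clone 56) and Cas9 cells (labelled Cas9-GFP) that overexpress it (clone 35), both with anti-FLAG. The endogenous protein was mapped with anti-GZF1 in RGM wild type, Cas9 wild type, the Cas9 Gzf1 knockout and a Cas9 line labelled control. H3K27ac and an input without antibody came from Cas9. Each group is 1 library, so no difference between libraries could be tested against replicate spread. Each tagged group is 1 clone, no anti-FLAG library of untagged cells was analysed here, and the single Cas9 input also stands for RGM. No reads were split by allele and no methylation was measured. The other 4 libraries of the series were not analysed here.

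The 4 genes form 2 imprinted clusters. Imprinted genes are transcribed from only the maternal or only the paternal chromosome, under the control of DNA methylation laid down in egg or sperm. Zrsr1, an intronless gene for a splicing factor related to U2AF1, lies on the opposite strand inside an intron of Commd1 and is expressed from the paternal copy, while its maternal copy is methylated. Commd1 encodes a COMM-domain protein of copper and receptor traffic. Grb10 encodes an adaptor that restrains insulin and IGF signalling and is maternally expressed in most tissues, but paternally in neurons from inner promoters near a maternally methylated CpG island. Its neighbour Ddc encodes aromatic L-amino acid decarboxylase, which makes dopamine and serotonin. ZFP57 protects such methylation by binding methylated TGCCGC.

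The libraries held 10.1 to 94.2 M reads, with a mean of 3.93 reads per autosomal 1 kb bin in the input, 8.61 in RGM wild-type anti-GZF1 and 15.9 to 35.8 in the others. Density is a bin's reads divided by that library's mean over autosomal bins. On that scale chromosome 11 stood at 1.16 in the knockout and 1.15 in the control, against 1.23 to 1.34 in the other 6 libraries. As a check of the cell type, the median H3K27ac density at gene ends was 1.98 for 8 stem cell markers and 1.99 for 4 fibroblast feeder markers. It was 1.33 for 4 genes of differentiated tissues, 1.31 for all genes and 1.73 for the 4 imprinted genes. This library thus did not separate stem cell from feeder markers. Intervals are 95% and cover counting error alone, since amplified reads need not be separate molecules.

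All 4 genes had entries among the RefSeq promoters (GRCm38.p6, the assembly called mm10), with 7 start sites in all. Each window runs from 250 bases before the start to 50 after it. The first 3 below are shown because the Zrsr1 bin and the bin of the outer Commd1 start hold them wholly or in part, and the last 2 because they flank or hold the raised Grb10 bins. Capitals mark TGCCGC, the letters bound by ZFP57, and TGCGC, letters within the binding sequence reported for GZF1, on either strand.
Zrsr1 start, chr11:22971755-22972054, plus strand: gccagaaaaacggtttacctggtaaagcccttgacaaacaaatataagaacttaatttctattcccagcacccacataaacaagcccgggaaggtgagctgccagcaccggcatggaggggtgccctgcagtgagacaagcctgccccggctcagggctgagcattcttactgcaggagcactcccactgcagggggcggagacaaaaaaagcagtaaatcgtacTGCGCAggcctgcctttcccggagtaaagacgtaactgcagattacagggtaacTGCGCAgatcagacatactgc
Commd1 inner start, chr11:22972817-22973116, minus strand: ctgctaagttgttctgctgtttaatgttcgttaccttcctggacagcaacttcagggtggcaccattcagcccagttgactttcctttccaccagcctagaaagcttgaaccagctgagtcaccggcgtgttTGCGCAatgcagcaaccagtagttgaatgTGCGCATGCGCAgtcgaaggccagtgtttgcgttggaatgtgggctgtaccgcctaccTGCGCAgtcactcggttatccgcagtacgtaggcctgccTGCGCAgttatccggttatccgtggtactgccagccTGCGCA
Commd1 outer start, chr11:22982235-22982534, minus strand: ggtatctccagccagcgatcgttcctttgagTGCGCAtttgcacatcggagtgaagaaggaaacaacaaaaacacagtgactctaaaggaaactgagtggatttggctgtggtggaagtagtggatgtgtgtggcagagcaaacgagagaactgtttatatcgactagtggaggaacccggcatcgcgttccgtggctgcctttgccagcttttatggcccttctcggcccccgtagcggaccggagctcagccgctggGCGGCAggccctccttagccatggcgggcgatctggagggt
Grb10 inner start, chr11:12027922-12028221, minus strand: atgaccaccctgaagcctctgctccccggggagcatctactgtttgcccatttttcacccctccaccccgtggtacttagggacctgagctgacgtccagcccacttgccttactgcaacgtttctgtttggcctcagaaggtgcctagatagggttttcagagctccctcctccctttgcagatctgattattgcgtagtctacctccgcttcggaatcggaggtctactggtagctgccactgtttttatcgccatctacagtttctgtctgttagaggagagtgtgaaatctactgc
Grb10 outer start, chr11:12037371-12037670, minus strand: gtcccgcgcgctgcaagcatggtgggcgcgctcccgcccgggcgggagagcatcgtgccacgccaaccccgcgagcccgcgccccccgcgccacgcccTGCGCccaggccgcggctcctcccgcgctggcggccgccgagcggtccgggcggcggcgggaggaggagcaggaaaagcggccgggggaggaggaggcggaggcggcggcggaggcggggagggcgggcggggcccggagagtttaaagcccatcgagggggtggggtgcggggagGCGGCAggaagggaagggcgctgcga

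The starts of Zrsr1 (22,972,005) and of the inner Commd1 transcript (22,972,866) both lie in the Zrsr1 bin and face each other on opposite strands, so the transcripts overlap. Of the windows, 54 bases of the Zrsr1 window and 184 of the inner Commd1 window fall in that bin. The inner Commd1 window had 12 matches to TGCGC and the Zrsr1 window had 4. Each of these stands within TGCGCA, which reads the same on both strands and so counts 2 times. Among 32,851 promoter windows of this length, 30.4% held TGCGC at all, 3.59% held 4 or more and 2 held 12 or more, the inner Commd1 window among them. TGCCGC was in neither of these windows and in 11.6% of all. The outer Commd1 window had 2 matches to TGCGC and 1 to TGCCGC, and the outer Grb10 window had 1 of each. The inner Grb10 window had neither, but it lies beyond the Grb10 bin: its start is 971 bp from the bin's end. The outer Grb10 window was the richest in CG, with 45 against a median of 7 over all windows, followed by 18 and 17 at the outer and inner Commd1 starts, 10 at Zrsr1 and 9 at the inner Grb10 start. The windows at the 2 starts of Ddc had 5 and 2 CG and no match to either motif. A match is a run of letters and not a measured site.

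The Zrsr1 start carried a sharp peak of tagged GZF1. Its bin held 178.35 anti-FLAG reads in RGM, a density of 6.74 (5.77 to 7.79), and 307.45 in Cas9, a density of 11.3 (10.1 to 12.6). Anti-GZF1 gave 57.05 reads in RGM wild type (6.63, from 5.01 to 8.58) and 106 in Cas9 wild type (4.49, from 3.68 to 5.44). The knockout held 72.4 reads (2.20, from 1.71 to 2.75) and the control 85.9 (2.40, from 1.92 to 2.97). H3K27ac had 70.7 reads (4.45, from 3.49 to 5.64) and the input 6 (1.53, from 0.561 to 3.33). By density the tagged libraries and both wild types were therefore above the knockout and the control, with no overlap of intervals, and H3K27ac stood with the wild types.

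Local background, the median of the 10 bins on each side, sets a bin against its own surroundings. With anti-FLAG the Zrsr1 bin was at 3.56 (3.05 to 4.11) times local background in RGM and 6.01 (5.35 to 6.71) times in Cas9, and at 3.34 (2.52 to 4.32) and 2.27 (1.86 to 2.75) times with anti-GZF1 in RGM and Cas9 wild type. It was at 1.39 (1.08 to 1.74) times in the knockout, 1.65 (1.32 to 2.04) times in the control, 2.16 (1.70 to 2.74) times for H3K27ac and 0.879 (0.323 to 1.91) times in the input. Here the intervals of Cas9 wild type and the control overlap, unlike those of density. In Cas9 anti-FLAG 0.0591% of autosomal bins were higher by this measure, and in RGM anti-FLAG 0.329%. The share was 1.33% and 1.27% in RGM and Cas9 wild type, 8.88% in the knockout, 1.79% in the control and 2.22% for H3K27ac. The control, although low in fold, thus ranked nearly as high within its own flat library as the wild types did within theirs. Over input the log2 value was 1.84 (0.71 to 2.97) in RGM and 2.54 (1.46 to 3.63) in Cas9 anti-FLAG, and 1.81 (0.53 to 3.10) and 1.30 (0.13 to 2.48) in RGM and Cas9 wild-type anti-GZF1. In the knockout it was 0.41 (−0.79 to 1.62) and in the control 0.52 (−0.66 to 1.71). For H3K27ac it was 1.29 (0.06 to 2.53), close to Cas9 wild-type anti-GZF1.

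At 2 times local background the peak was 1 bin wide in the tagged libraries, with lower values, still above 1, in the bins beside it. The bin before it holds most of the Zrsr1 promoter window. There anti-FLAG was at 1.52 (1.19 to 1.91) times in RGM and 1.54 (1.22 to 1.92) times in Cas9. The input, with 15 reads, was at 2.37 (1.33 to 3.91) times. The bin after the peak (22,973,001 to 22,974,000) lies inside Zrsr1 and has the upstream part of the inner Commd1 window. Its anti-FLAG values were 1.66 (1.32 to 2.05) times in RGM and 1.72 (1.37 to 2.13) times in Cas9. In this next bin the order of the libraries turned. The knockout, with 100.95 reads, was at 1.94 (1.58 to 2.36) times and the control, with 112.45 reads, at 2.16 (1.77 to 2.59) times, while RGM and Cas9 wild type were at 1.67 (1.09 to 2.37) and 1.29 (0.988 to 1.65) times. Among these 4 libraries, only the intervals of the control and Cas9 wild type do not overlap. It was the highest bin of all 309 in both the knockout and the control. The knockout to control ratio there was 0.975 (0.741 to 1.29).

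**Figure D1:**
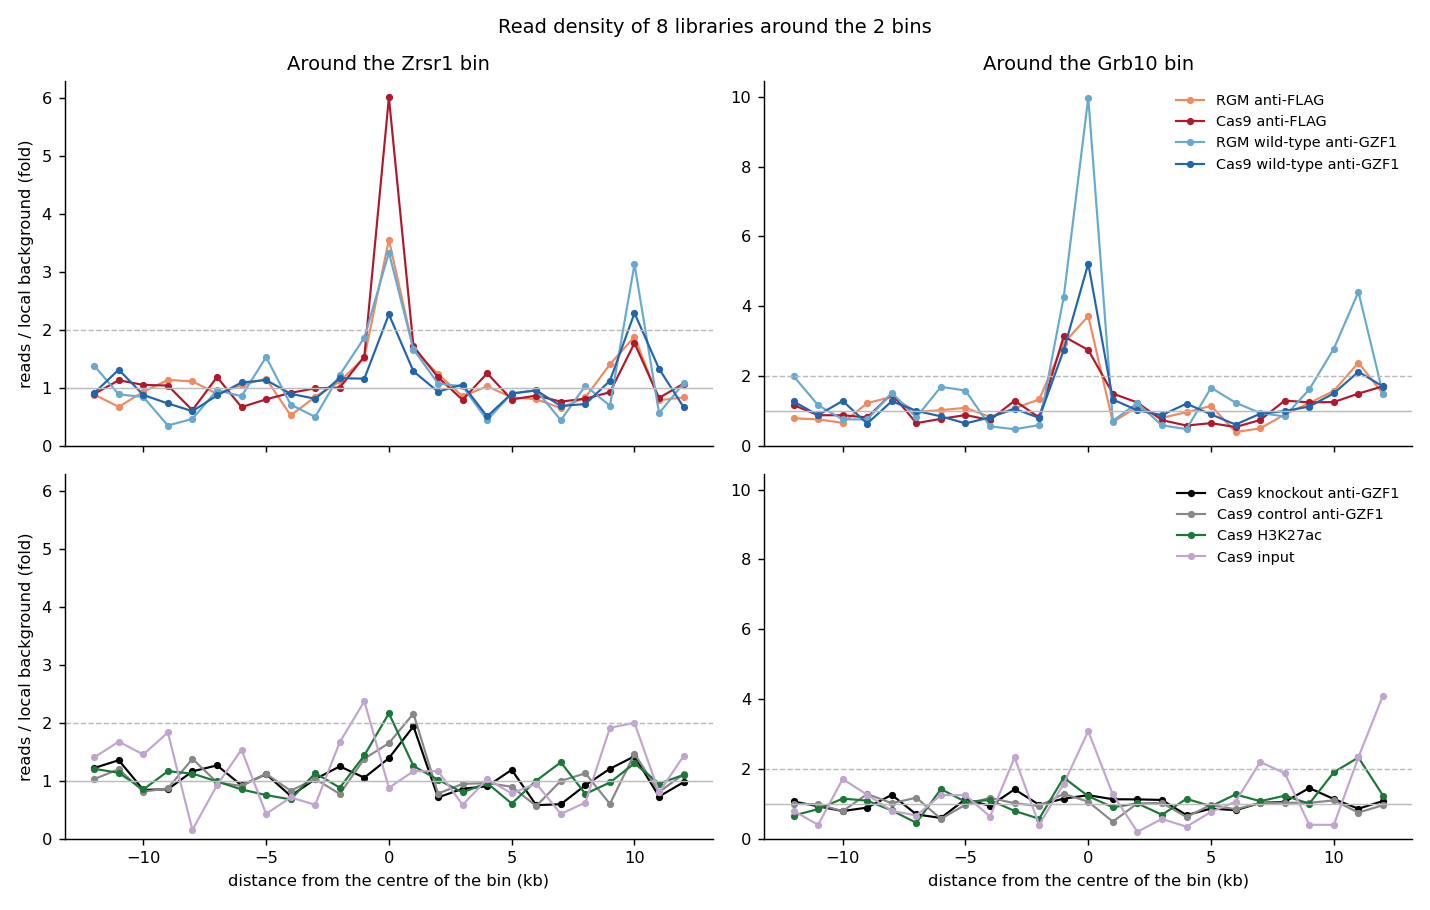
Reads over local background (vertical axis, fold) in the bins within 12 kb of the Zrsr1 bin (left) and the Grb10 bin (right), by distance in kb, for the tagged and wild-type GZF1 libraries (top) and for the knockout, control, H3K27ac and input (bottom); lines mark 1 and 2 times. At Zrsr1 the anti-FLAG libraries rise to 3.56 and 6.01 times in 1 bin, and at Grb10 wild-type anti-GZF1 rises to 9.97 and 5.22 times in RGM and Cas9, where the knockout and the control stay at 1.25 and 1.06 times.

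The bin at the outer start of Commd1 reached 2 times local background in both wild types with anti-GZF1, and stayed below that with anti-FLAG. The bin at 22,982,001 to 22,983,000 held 61 reads of RGM and 114.9 of Cas9 wild-type anti-GZF1, which was 3.14 (2.40 to 4.03) and 2.29 (1.89 to 2.75) times local background. Anti-FLAG, with 95.8 reads in RGM and 97.5 in Cas9, was at 1.88 (1.53 to 2.31) and 1.77 (1.45 to 2.17) times. Both anti-FLAG intervals lay above 1 and held 2. The knockout (73.55 reads) and the control (81.85 reads) were at 1.42 and 1.47 times, and H3K27ac at 1.30 times. The input, with 14 reads, was itself at 2.0 (1.09 to 3.36) times, and its part in the wild-type values was not tested. The anti-FLAG to anti-GZF1 ratio of densities in this bin was 0.511 (0.368 to 0.718) in RGM and 0.736 (0.558 to 0.976) in Cas9. At the start shared with Zrsr1 it was 1.02 (0.750 to 1.39) in RGM and 2.51 (2.01 to 3.16) in Cas9. Anti-FLAG was thus stronger relative to anti-GZF1 at the start shared with Zrsr1 than at the outer start, in each line with intervals that do not overlap. The anti-FLAG cells are clones that overexpress tagged GZF1, and the anti-GZF1 cells are wild type. Antibody, overexpression, clone and library therefore cannot be told apart. The shared start was also chosen for its high reads. Among the 96 Commd1 bins, the Zrsr1 bin alone reached 2 times local background in an anti-FLAG library, and 3 bins away from the starts did so in RGM wild-type anti-GZF1.

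In the Grb10 bin anti-GZF1 was stronger than anti-FLAG in both lines. This bin held 127 anti-FLAG reads in RGM, a density of 4.80 (4.0 to 5.71), and 78.3 in Cas9, a density of 2.88 (2.27 to 3.58). Anti-GZF1 gave 100.2 reads in RGM wild type (11.6, from 9.45 to 14.1) and 162.35 in Cas9 wild type (6.88, from 5.85 to 8.01). The knockout held 55.35 reads (1.68, from 1.26 to 2.17), the control 50.2 (1.40, from 1.04 to 1.84), H3K27ac 26.4 (1.66, from 1.07 to 2.40) and the input 14.55 (3.71, from 2.14 to 6.30). Both wild types stood highest, and the knockout, the control and H3K27ac lay together at the bottom. The anti-FLAG to anti-GZF1 ratio was 0.412 (0.315 to 0.542) in RGM and 0.418 (0.314 to 0.550) in Cas9. Bins at 0.5 or less made up 5.85% of autosomal bins in RGM and 3.13% in Cas9, and 12 of 308 and 4 of 309 member bins. Here too antibody, overexpression, clone and library cannot be told apart.

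With anti-FLAG the Grb10 bin was at 3.72 (3.10 to 4.42) times local background in RGM and 2.75 (2.16 to 3.42) times in Cas9. It was at 9.97 (8.10 to 12.1) and 5.22 (4.44 to 6.08) times with anti-GZF1 in RGM and Cas9 wild type, where 0.0178% and 0.0754% of autosomal bins were higher. It was at 1.25 (0.935 to 1.62) times in the knockout, 1.06 (0.785 to 1.40) times in the control and 1.22 (0.784 to 1.76) times for H3K27ac. The input was at 3.08 (1.78 to 5.24) times, from about 15 reads. Divided by this input value, anti-FLAG was at 1.21 times in RGM and 0.892 times in Cas9, and wild-type anti-GZF1 at 3.24 times in RGM and 1.70 times in Cas9. The log2 values over input were 0.33 (−0.60 to 1.23) and −0.32 (−1.30 to 0.63) for anti-FLAG in RGM and Cas9, 1.53 (0.55 to 2.47) and 0.81 (−0.10 to 1.69) for anti-GZF1 in RGM and Cas9 wild type, −0.95 (−1.95 to 0.02) in the knockout and −1.14 (−2.15 to −0.17) in the control. RGM wild-type anti-GZF1 alone had an interval above 0. At Zrsr1, by contrast, the input was not raised, and the log2 intervals of all 4 tagged and wild-type libraries lay above 0, as did that of H3K27ac.

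The raised signal in Grb10 covered 2 bins. In the bin before (12,025,001 to 12,026,000) anti-FLAG was at 2.94 (2.39 to 3.58) times in RGM and 3.14 (2.51 to 3.89) times in Cas9, and anti-GZF1 at 4.26 (3.06 to 5.87) and 2.74 (2.19 to 3.39) times in RGM and Cas9 wild type. The input was at 1.58 (0.596 to 3.05) times there, the knockout at 1.15 times, the control at 1.29 times and H3K27ac at 1.75 times. The bin with the inner start (12,027,001 to 12,028,000) stayed below 2 times in all 8 libraries. At the outer start (12,037,001 to 12,038,000) anti-GZF1 was at 4.41 (3.18 to 5.96) and 2.12 (1.64 to 2.67) times in RGM and Cas9 wild type, anti-FLAG at 2.38 (1.89 to 2.97) and 1.5 (1.11 to 1.95) times in RGM and Cas9, and H3K27ac at 2.33 (1.74 to 3.09) times. The knockout (0.862 times) and the control (0.749 times) were not raised, and the input, with 7 reads, was at 2.33 (0.938 to 4.81) times. Among the Grb10 bins, this start had the highest H3K27ac value.

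**Figure D2:**
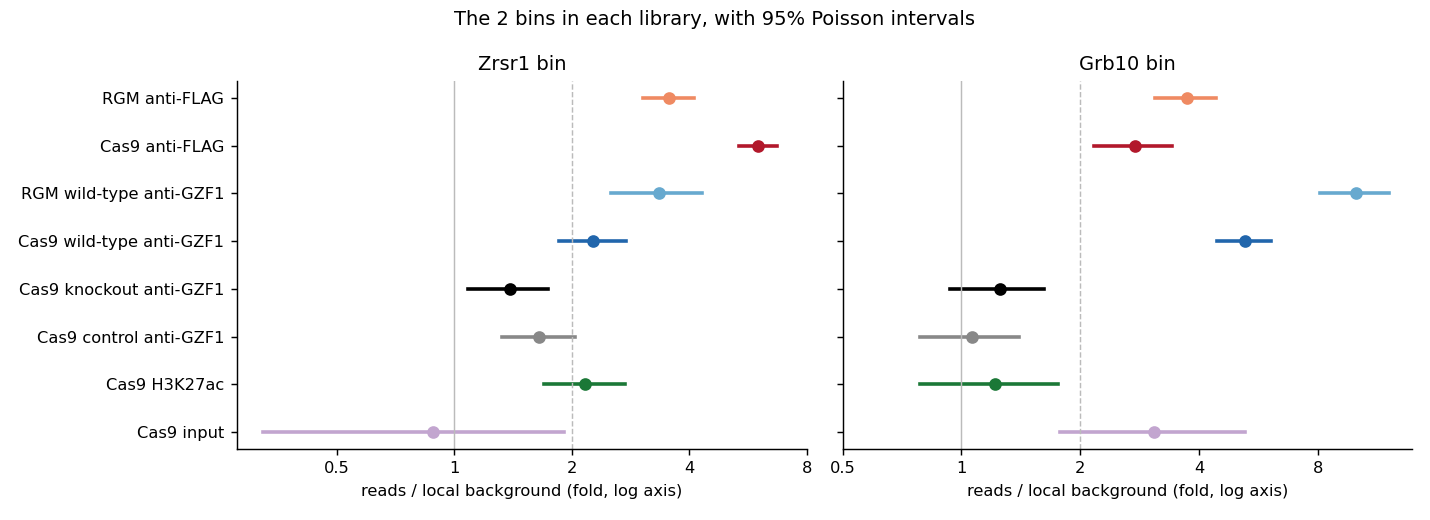
Reads over local background (fold, log axis) in the Zrsr1 bin (left) and the Grb10 bin (right) for each of 8 libraries, with 95% exact Poisson intervals on the reads of the bin. The tagged libraries lead at Zrsr1, where the input is at 0.879 times, and the wild-type anti-GZF1 libraries lead at Grb10, where the input is at 3.08 times.

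Ddc had no peak inside its body in the tagged libraries. In Cas9 its highest anti-FLAG bin was at 1.83 times (11,836,001 to 11,837,000, a bin named after its value was seen). In RGM it was the bin 11,809,001 to 11,810,000 in the flank. That bin begins just upstream of the annotated start (11,808,962, minus strand) of the neighbouring gene Fignl1, which encodes an AAA ATPase of DNA repair. There anti-FLAG was at 2.41 (1.94 to 2.93) times in RGM and 1.73 (1.38 to 2.13) times in Cas9, and anti-GZF1 at 3.39 (2.43 to 4.60) and 1.68 (1.31 to 2.10) times in RGM and Cas9 wild type. H3K27ac was at 2.15 times, the knockout at 1.51 times, the control at 1.70 times, and the input, with 3 reads, at 0.465 times. At the outer Ddc start (11,898,144) the tagged and wild-type libraries were at 0.690 to 1.24 times. At its inner start (11,890,408) anti-FLAG was at 1.42 (1.07 to 1.83) and 1.60 (1.25 to 2.03) times in RGM and Cas9, H3K27ac at 1.70 times, and anti-GZF1 at 1.15 and 1.11 times in RGM and Cas9 wild type.

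Counted over all 309 bins, few stood out. At 2 or more times local background were 6 bins in RGM anti-FLAG and 3 in Cas9 anti-FLAG, or 1.94% and 0.971%, against 2.61% and 1.60% of all autosomal bins. With anti-GZF1 they were 20 in RGM and 5 in Cas9 wild type (6.47% and 1.62%), against 9.78% and 2.42% of all. The knockout had 0 and the control 1, against 0.328% and 0.279%, H3K27ac had 4 against 3.52%, and the input had 24 (7.77%) against 17.9%. These shares are at or below the background, except for the single bin of the control. In all, 23 bins were raised in 1 or more of the 7 ChIP libraries and 6 in 2 or more. In all 4 libraries of tagged and wild-type GZF1, 3 were raised: the Zrsr1 bin and both Grb10 bins. Of these, the 2 bins shown singly were chosen for their high reads, and the other adjoins the Grb10 bin. The share of autosomal bins raised in several libraries was not computed, so these counts have no scale. At 3 or more times there were 2 of 309 bins in RGM and 2 of 309 in Cas9 anti-FLAG, against 0.567% and 0.305% of all. Both of these shares lie above the background. In RGM the 2 bins are the Zrsr1 bin and the Grb10 bin, both chosen for their high reads. In Cas9 they are the Zrsr1 bin and the bin before the Grb10 bin. Neither excess is therefore a result about the loci. There were 6 in RGM and 1 in Cas9 wild-type anti-GZF1, against 2.13% and 0.432%. The knockout, the control and H3K27ac had 0, against 0.0204%, 0.0167% and 0.513%, and the input had 4, against 5.10%.

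**Figure D3:**
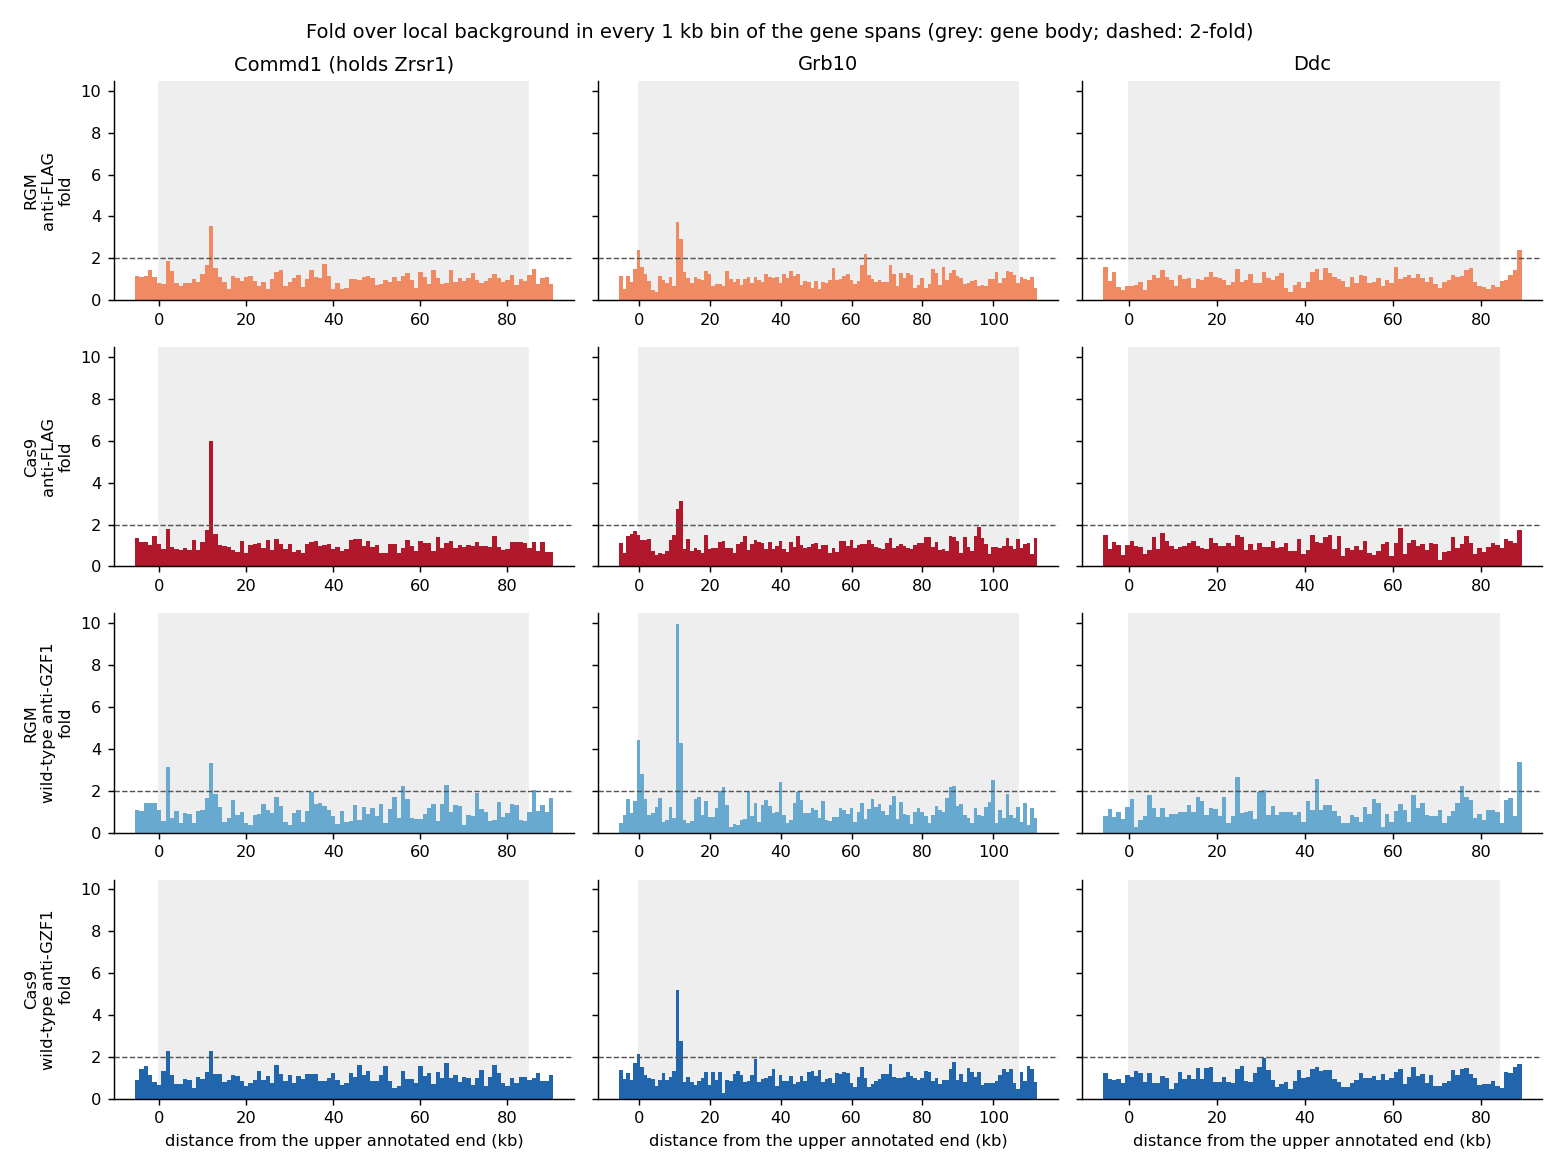
Reads over local background (vertical axis, fold) in every 1 kb bin of Commd1 with Zrsr1, Grb10 and Ddc, by distance in kb from the gene's upper annotated end, for tagged GZF1 in RGM and Cas9 and wild-type anti-GZF1 in RGM and Cas9; grey marks the gene body and the dashed line 2 times. Cas9 anti-FLAG passes 2 times in 1 bin of Commd1, 2 of Grb10 and 0 of Ddc.

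Knockout and control were set side by side to see what anti-GZF1 yields without Gzf1. The ratio of knockout to control was 0.915 (0.656 to 1.26) in the Zrsr1 bin and 1.2 (0.800 to 1.79) in the Grb10 bin. Over the gene spans it was 1.05 (0.951 to 1.15) at Zrsr1, 1.02 (0.977 to 1.06) at Commd1, 0.965 (0.930 to 1.00) at Grb10 and 1.01 (0.972 to 1.05) at Ddc. All 6 intervals held 1. A ratio of 0.5 or less was seen in 1 of 309 member bins (11,935,001 to 11,936,000, with 27.3 knockout and 64.65 control reads), against 2.87% of autosomal bins, and one of 2 or more in 1 bin (12,027,001 to 12,028,000, with 50.2 and 23.5 reads), against 2.59%. At Grb10 the control had no peak to lose, at 1.06 times local background. At Zrsr1 it was at 1.65 times, below Cas9 wild type by density (2.40 against 4.49). In these 2 bins the control thus had little or no peak against which a loss in the knockout could be measured. In the bin after the Zrsr1 bin the control was at 2.16 (1.77 to 2.59) times and the knockout at 1.94 (1.58 to 2.36) times. Their ratio there was 0.975 (0.741 to 1.29), so that signal remained in the knockout.

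Wild type and control, both Cas9 with anti-GZF1, differed more than knockout and control. The ratio of wild type to control was 1.87 (1.39 to 2.51) in the Zrsr1 bin and 4.91 (3.56 to 6.89) in the Grb10 bin. Both bins were chosen for high reads in the GZF1 libraries, so these ratios are a description. The other bins given here were named by their anti-FLAG values. The ratio was 2.14 (1.51 to 3.01) in the other Grb10 bin, 2.89 (1.89 to 4.42) at the outer Grb10 start and 2.13 (1.59 to 2.86) at the outer Commd1 start. It was 0.836 (0.605 to 1.16) in the bin after the Zrsr1 bin. Over the spans it was 1.35 (1.22 to 1.49) at Zrsr1, 1.26 (1.21 to 1.31) at Commd1, 1.07 (1.03 to 1.12) at Grb10 and 1.18 (1.13 to 1.23) at Ddc. Relative to the 1 Mb around each span these were 1.13, 1.06, 1.09 and 1.30. Relative to the 1 Mb around it, the Zrsr1 bin was at 1.56 (1.16 to 2.10) and the Grb10 bin at 4.97 (3.61 to 6.99). A ratio of 2 or more was found in 17 of 309 member bins, or 5.50%, against 5.39% of autosomal bins, and one of 0.5 or less in 6, or 1.94%, against 13.6%. The labels do not say how the control differs from the wild type. With 1 library each, a difference between libraries and one between cells cannot be told apart.

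The RGM to Cas9 ratio of anti-FLAG was 0.596 (0.493 to 0.719) in the Zrsr1 bin and 1.67 (1.25 to 2.25) in the Grb10 bin, with intervals that do not overlap. For wild-type anti-GZF1 it was 1.47 (1.05 to 2.05) and 1.69 (1.30 to 2.18). RGM was lower in the surrounding 1 Mb. Divided by the ratio there, anti-FLAG came to 0.697 (0.576 to 0.841) at Zrsr1 and 1.91 (1.43 to 2.57) at Grb10, and anti-GZF1 to 1.69 (1.2 to 2.36) at Zrsr1 and 1.90 (1.46 to 2.45) at Grb10. Anti-FLAG was thus lower in RGM in the Zrsr1 bin and higher in RGM in the Grb10 bin. In the other raised Grb10 bin (12,025,001 to 12,026,000) the anti-FLAG ratio, before that division, was 1.21 (0.896 to 1.63), an interval that holds 1. With 1 clone per line, clone, line and library cannot be told apart. Over the spans the anti-FLAG ratio was 0.861 (0.786 to 0.942) at Zrsr1, 0.866 (0.831 to 0.903) at Commd1, 0.974 (0.934 to 1.02) at Grb10 and 0.877 (0.839 to 0.915) at Ddc. The surrounding 1 Mb had 0.851 to 0.871, and relative to it the ratios were 1.01, 1.02, 1.13 and 1.01. A ratio of 0.5 or less was found in 10 member bins and one of 2 or more in 1, or 3.24% and 0.324%, against 7.59% and 4.91% of autosomal bins. For anti-GZF1 these were 39 and 6 of 308 bins, against 15.0% and 7.86%. Anti-FLAG was at 2 or more times anti-GZF1 in 26 of 308 bins in RGM and 7 of 309 in Cas9, against 13.9% and 5.84%, and the Zrsr1 bin in Cas9 was among the 7.

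**Figure D4:**
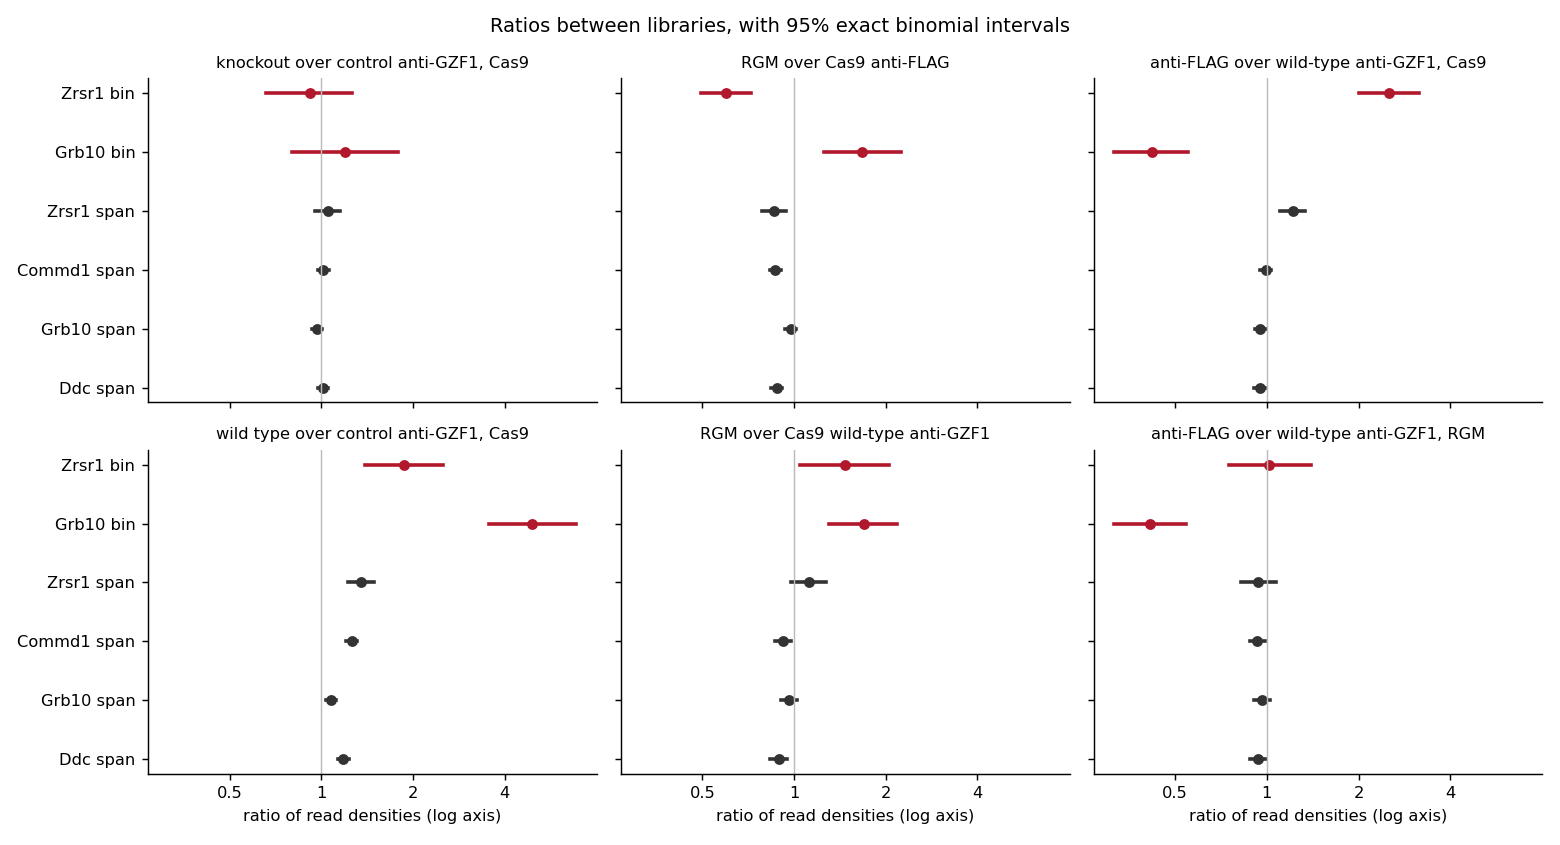
Ratios of read density between libraries (log axis) with 95% exact binomial intervals, for the 2 bins (red) and the 4 gene spans with flanks (black), in 6 comparisons each named as first library over second. The bins, chosen for their high reads, run from 0.412 to 4.91, the latter for wild type over control at Grb10. In 9 of their 12 ratios the interval leaves out 1. All spans lie between 0.861 and 1.35, and several of their intervals also leave out 1.

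Whole genes differed less than their starts. Zrsr1 with its flanks had densities of 2.24 (2.10 to 2.40) and 2.61 (2.45 to 2.77) with anti-FLAG in RGM and Cas9, 2.39 (2.13 to 2.67) and 2.14 (1.99 to 2.30) with anti-GZF1 in RGM and Cas9 wild type, 1.67 in the knockout, 1.59 in the control, 2.17 for H3K27ac and 1.72 (1.40 to 2.08) in the input. Its median bin was at 1.87 and 1.85 with anti-FLAG in RGM and Cas9, while its highest, the Zrsr1 bin, was at 6.74 and 11.3. Commd1 ranged from 1.51 in the control to 1.90 in Cas9 wild type, Grb10 from 1.32 in the knockout to 1.47 in Cas9 wild type, and Ddc from 1.53 in RGM anti-FLAG to 1.88 for H3K27ac. The input was at 1.59, 1.45 and 1.76 over these 3 genes. Grb10 was the lowest of the 4 spans in every library, and Zrsr1 the highest in each of the 7 ChIP libraries.

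Other genes give a scale for these starts. The highest fold among the bins at the annotated ends of a gene, with 1 bin on either side, was taken for each gene. Of the 4 genes 2 (Zrsr1 and Grb10) reached 2 times in RGM anti-FLAG and 1 (Zrsr1) in Cas9 anti-FLAG, against 30.9% and 19.9% of 47,038 autosomal genes. With anti-GZF1 3 did so in RGM and 2 in Cas9 wild type, against 53.6% and 31.8%. The knockout had 0, the control 1, H3K27ac 2 and the input 2, against 7.04%, 7.22%, 31.1% and 57.6%. Of 20 genes of other imprinted loci 7 in RGM and 9 in Cas9 did so with anti-FLAG, and 16 in RGM and 9 in Cas9 wild type with anti-GZF1. In Cas9 anti-FLAG none of the 20 reached the 6.01 of Zrsr1. The Zrsr1 bin was chosen for its high reads over local background in these libraries, so its rank is a description. The highest of the 20 was Peg13 at 2.93, with an input at 2.31. Peg3, which encodes a zinc-finger protein, followed at 2.54, with an input at 2.53. By this measure, which takes the highest of neighbouring bins in each library on its own, the input was at 2.37 for Zrsr1 and 4.10 for Grb10. In RGM anti-FLAG Inpp5f (4.22) stood above the 3.56 of Zrsr1. Inpp5f was also the highest with anti-GZF1, at 8.31 in RGM and 3.65 in Cas9 wild type, where its input was at 5.67. The ends of the Grb10 gene do not include its raised inner bins, and those of Commd1 do not include its outer RefSeq start.

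Relatives of the 4 genes were measured in the same way. Of 9 other COMM-domain genes, 4 in RGM and 2 in Cas9 were at 2 times with anti-FLAG, and 7 in RGM and 5 in Cas9 wild type with anti-GZF1. Commd3 led with 2.74 in Cas9 anti-FLAG, with an input at 2.6, and Commd2 led in RGM anti-FLAG with 3.61, with an input at 3.4. Of 3 U2AF genes, which encode the factor that recognises the end of introns, 2 in RGM and 1 in Cas9 were raised with anti-FLAG, and U2af1 had 5.73 with anti-GZF1 in RGM wild type, with an input at 2.33. Grb14, like Grb10 an inhibitory adaptor of the insulin receptor, had 4.2 and 1.51 with anti-FLAG in RGM and Cas9 and 4.78 and 3.81 with anti-GZF1 in RGM and Cas9 wild type, with an input at 4.74. Grb7 was raised in RGM wild-type anti-GZF1 alone, at 2.14. Of 6 monoamine genes Gch1, which makes the cofactor of the hydroxylases, was at 3.21 in RGM anti-FLAG, with an input at 2.09, and none reached 2 times in Cas9 anti-FLAG.

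**Figure D5:**
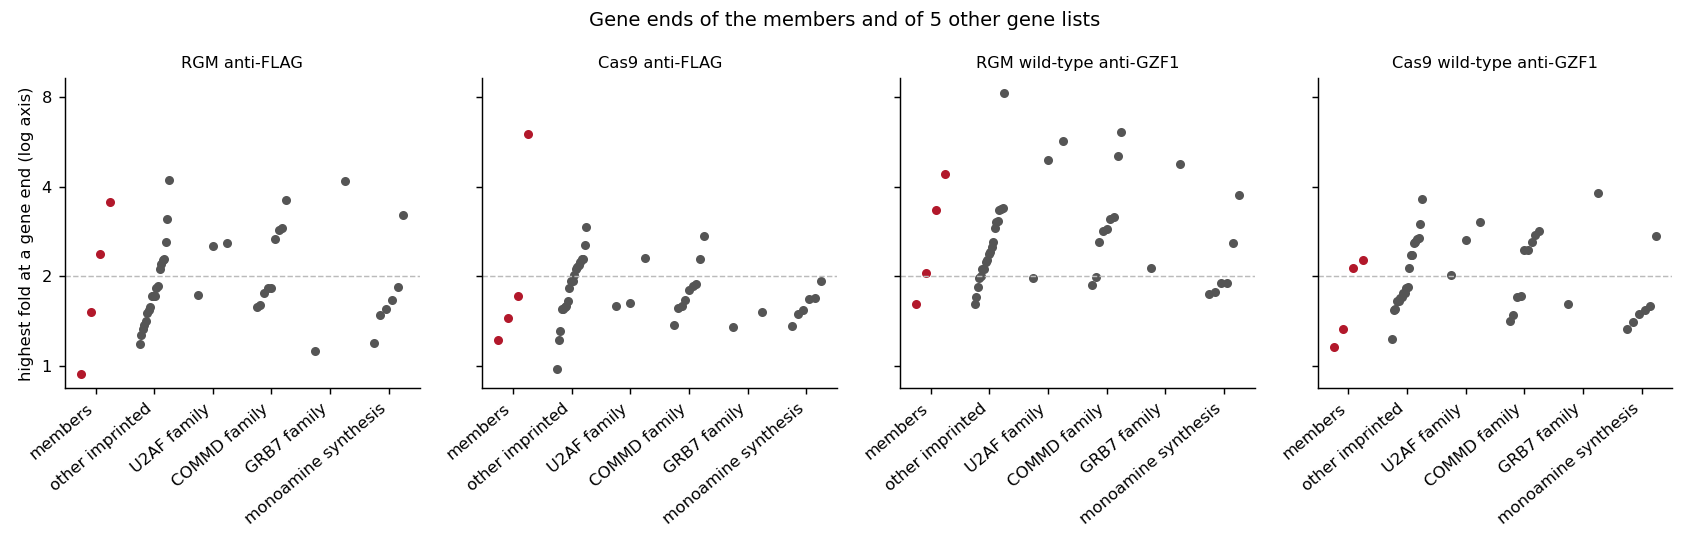
Highest fold over local background at a gene's annotated ends (log axis) for the 4 imprinted genes (red) and 5 other gene lists (grey), in RGM and Cas9 anti-FLAG and in RGM and Cas9 wild-type anti-GZF1; each point is a gene and the dashed line marks 2 times. Zrsr1, chosen for its high reads in these libraries, is the highest point of all lists in Cas9 anti-FLAG, at 6.01.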

How the data were processed

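The deposited table gives estimated read counts (expected counts) per 1 kb bin for 8 libraries; their totals differ between libraries, so they are taken as not scaled to depth. Per the submitters' processing notes, cutadapt, Bowtie2 2.5.4, SAMtools and deepTools were used with mm10; filters on duplicates or mapping quality are not given in the sources used here. All values (100%) were multiples of 0.05 within 0.001. Each library was divided by its autosomal mean (2,462,755 bins), and log2 values over input used a pseudocount of 0.5 of that mean. Local background needed a median of 1 read or more. Single counts carry exact Poisson intervals, ratios exact binomial (Clopper-Pearson) intervals on reads rounded to whole numbers, and log2 values over input combine both Poisson bounds; a count of 0 allows up to 3 reads. Bins entered ratio counts with 20 or more reads in the pair. Gene ends and promoters came from RefSeq (GRCm38.p6); Nespas of the imprinted list and Zrsr2 of the U2AF list were not matched on the autosomes. The named bins are the 3 highest per gene by mean log2 anti-FLAG fold, with the bins of gene ends. Members and lists were chosen with earlier results of these data known. The comparison of antibodies within a line was added after the data were seen. Local background and ratios were tested on simulated data. The work ran under Python 3.11.15 with scipy 1.17.1, pandas 2.3.3 and, for arrays, numpy 2.4.6.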

Additional observations from a re-analysis of the deposited data

How the results depend on the processing

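No paired analysis was possible because each group is 1 library, and for the same reason no replicate could be left out. Of 316 recomputed values, 252 lay within the counting interval of the original value or, for counts, within 1.5 times of it; 10 of these 252 crossed 1, the intervals of their original values all holding 1. In all 22 values turned direction.

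Division by the input fold changed the Grb10 bin most: Cas9 anti-FLAG turned to 0.892 times, RGM anti-FLAG came to 1.21 times, and wild-type anti-GZF1 to 3.24 times in RGM and 1.70 times in Cas9; at Zrsr1 it gave 6.84 times in Cas9 anti-FLAG. At Grb10 it also put the knockout at 0.406, the control at 0.345 and H3K27ac at 0.396 times. The input values rest on 6 reads at Zrsr1 and about 15 at Grb10, which limits this correction. Taken over 3 kb, the Zrsr1 values were 2.22 and 3.07 times with anti-FLAG in RGM and Cas9 and 2.21 and 1.59 times with anti-GZF1 in RGM and Cas9 wild type. The Grb10 values were 2.46 times in RGM anti-FLAG and 4.88 and 3.09 times with anti-GZF1 in RGM and Cas9 wild type, since neighbouring bins are averaged in. Over 3 kb the wild type to control ratio was 1.25 at Zrsr1 and 3.28 at Grb10, and the RGM to Cas9 anti-FLAG ratio 0.728 and 1.23. A background of 5 bins raised RGM wild-type anti-GZF1 at Grb10 to 13.2 times.

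At 3 times local background, raised member bins numbered 2 in RGM anti-FLAG, 6 and 1 in RGM and Cas9 wild-type anti-GZF1, none (0) for the control and 0 for H3K27ac. A filter on input density (0.25 to 3) left 3 in Cas9 wild type, 20 bins per side gave 1 in the knockout, and 5 bins per side gave 2 for H3K27ac; the cause was not tested. Over gene spans, the direction turned for the wild type to control ratio of Grb10 scaled to chromosome 11 (0.922). It turned relative to the surrounding 1 Mb for the RGM to Cas9 anti-FLAG ratios of Zrsr1 (1.01), Commd1 (1.02), Grb10 (1.13) and Ddc (1.01) and for the RGM to Cas9 anti-GZF1 ratios of Commd1 (1.07) and Grb10 (1.09). Scaled to chromosome 11, the anti-FLAG ratio of Grb10 was 1.03.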

Other observations

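Bins elsewhere with the pattern most like that of each bin were sought over 1,956,563 autosomal bins, by the root mean square difference of log2 values over local background (reads plus 1) across 8 libraries. The Zrsr1 bin was most like a bin within 5 kb of Esr2, an estrogen receptor gene (chromosome 12, 76,177,001 to 76,178,000), at a difference of 0.20. That bin had 3.84 times local background in RGM and 4.80 times in Cas9 anti-FLAG, 3.76 and 1.97 times with anti-GZF1 in RGM and Cas9 wild type, 1.63 times in the knockout and 1.64 times in the control. Next came bins by Idh1 and Pikfyve (0.27), by Rab4a (0.28), by C2cd4c and Shc2 (0.28) and by Gm13036 (0.30). In these 5 bins the input was at 0.70 to 1.23 times.

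The Grb10 bin was most like a bin by Fmnl2, a formin gene of actin assembly (chromosome 2, 52,858,001 to 52,859,000), at a difference of 0.32. There anti-FLAG was at 4.07 and 2.62 times in RGM and Cas9, anti-GZF1 at 7.27 and 3.97 times in RGM and Cas9 wild type, the knockout at 1.32 times, the control at 1.05 times and the input at 2.51 times. Bins by Nckap1 and Gm13688 (0.35), by Csf2ra and Gm4242 (0.36), by Glyr1 and Ubn1 (0.36) and by Gm8493 and Crlf2 (0.37) followed. In these 5 bins the input was at 2.35 to 3.43 times local background. The input is 1 of the 8 libraries compared, so likeness in the input is part of how these bins were found, and the part of the raised input in their GZF1 values was not tested. Likeness is a description over 8 libraries and says nothing of shared function.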
